A study of Rattus norvegicus with 9 samples.

Results

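The transcripts described are those of 9 genes for neuropeptide precursors and granins: Cck, Sst, Npy, Penk, Vgf, Chga, Chgb, Scg2 and Scg3. They were taken by gene name from a count table of 30562 genes, and each name belonged to 1 ID. All 9 were among the 7073 genes with enough counts to be tested. The rats, whose hippocampus gave the RNA, were male Sprague-Dawley animals aged 6 to 8 weeks before 1 week of acclimatization, and they formed 3 groups of 3 libraries. Model rats received a high-fat diet for 4 weeks and 1 intraperitoneal injection of streptozotocin at 50 mg/kg, which kills pancreatic beta cells. Those with fasting glucose of at least 16.7 mmol/L then went through 5 weeks of chronic unpredictable mild stress. ChryM rats were given chrysophanol, a plant anthraquinone, by oral gavage for 14 consecutive days. The series title places them among diabetic and stressed rats, so they are read here as having had the same diet, streptozotocin and stress as Model rats, and the dose is not given in the sources used here. Ctrl rats were the normal controls. The labels do not tie libraries to animals, so each p-value reflects library-to-library spread alone, possibly technical in part.

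Neuropeptides are cut from larger precursor proteins inside dense-core vesicles and are released by neurons during sustained activity. Granins are acidic proteins that fill and help to form these vesicles and are themselves cut into peptides. In the hippocampus, somatostatin and neuropeptide Y mark classes of inhibitory interneurons, cholecystokinin is made by basket cells and also by pyramidal neurons, and VGF is induced by neurotrophins and by activity.

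Library totals ran from 631119 to 866048 counts, which is shallow, and the 9 genes held 140 (Penk) to 7676 (Chgb) counts over all 9 libraries. All 8 markers of pyramidal neurons and 5 of 7 markers of dentate granule neurons had counts in every library. Th and Dbh, which mark catecholamine cells such as those of the adrenal medulla, had no count in any library, which in the smallest one allows up to 4.96 CPM (counts adjusted for library depth, with the TMM scaling used throughout) by counting error alone. Markers of several cell types and tissues differed between groups. The 7 dentate granule markers summed to 155 to 165 CPM in ChryM, 97.9 to 114 CPM in Model and 167 to 178 CPM in Ctrl, and the 8 pyramidal markers to 1292 to 1358 CPM in ChryM, 1277 to 1337 CPM in Model and 1306 to 1478 CPM in Ctrl. The summed level of 10 choroid plexus markers was 73.4 to 87.1 CPM in ChryM, 28.1 to 45.3 CPM in Model and 1656 to 1734 CPM in Ctrl, and that of 8 myelin markers was 15330.0 to 16312 CPM in ChryM, 8684 to 9735 CPM in Model and 15332 to 15545 CPM in Ctrl. Erythrocyte markers, 3 found of 4, summed to 102 to 106 CPM in ChryM, 67.9 to 87.7 CPM in Model and 313 to 345 CPM in Ctrl. The 8 microglial markers summed to 106 to 125 CPM in ChryM, 165 to 188 CPM in Model and 149 to 176 CPM in Ctrl, and the 7 astrocyte markers to 1030.5 to 1063 CPM in ChryM, 1179.9 to 1187 CPM in Model and 1162 to 1324 CPM in Ctrl. The 7 cortical markers summed to 45.2 to 62.1 CPM in ChryM, 45.3 to 81.1 CPM in Model and 71.9 to 84.1 CPM in Ctrl, with Tbr1 and Fezf2 called lower in Model than in Ctrl and Tbr1 lower in ChryM than in Ctrl. The 6 thalamic markers summed to 20.1 to 34.2 CPM in ChryM, 48.0 to 60.0 CPM in Model and 23.6 to 54.8 CPM in Ctrl. The part of these markers in the results below was not tested. In tissue RNA, fewer cells of a type and less RNA per cell cannot be told apart. The strand setting of the authors' counting is not given in the sources used here, so counts under a name may include reads of the other strand. None of the 9 genes overlapped another gene in RefSeq's annotation of GRCr8.

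Levels between genes were compared as FPKM, the authors' deposited counts per kilobase of gene length, scaled to library size. The order thus rests on the deposited lengths, such as 844 bases for Cck and 6922 for Chgb. In CPM, which leaves length out, Chgb had 930 to 1244 and Cck 189 to 309 over the 9 libraries. Cck was the most abundant per length, at a mean of 281 FPKM over the 9 libraries (range 238 to 356). Chgb followed at 162 FPKM (131 to 186) and Chga at 146 FPKM (131 to 175), 2 granin genes whose ranges overlapped, with Chgb higher in 6 of 9 libraries. Sst stood at 115 FPKM (92.4 to 152), Scg3 at 90.3 FPKM (80.1 to 104) and Scg2 at 71.7 FPKM (62.5 to 79.2). Scg3 and Scg2 did not overlap, while Sst overlapped both Chga and Scg3. Vgf had 58.5 FPKM (36.4 to 80.5), Npy 36.6 FPKM (20.5 to 51.4) and Penk 15.9 FPKM (11.6 to 20.7). Npy exceeded Penk in all 9 libraries, although their ranges over libraries touched, and Vgf overlapped Scg2 and Npy.

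**Figure D1:**
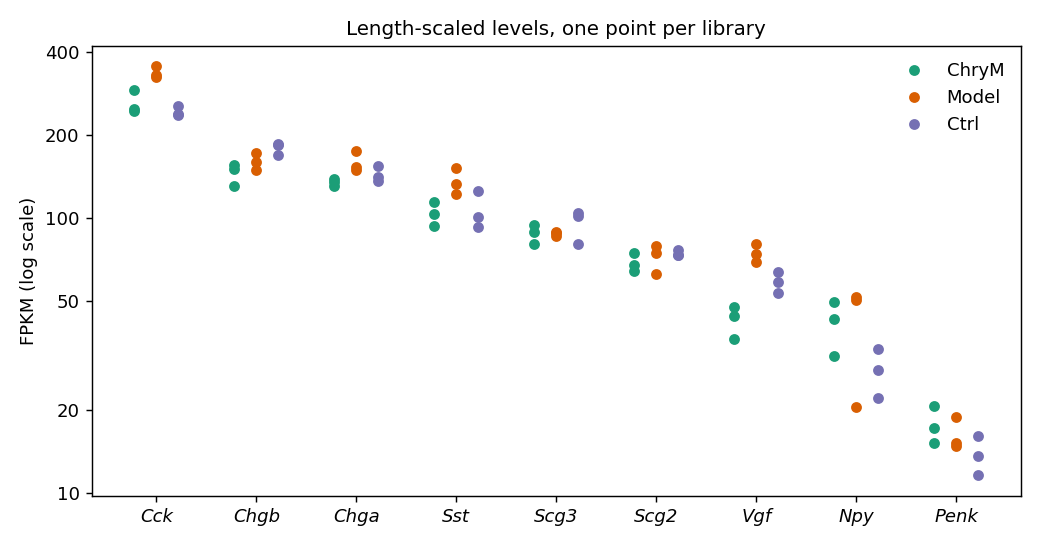
Level of each gene in FPKM on a log axis, genes ordered by their mean over 9 libraries; each point is 1 library, in the order ChryM, Model, Ctrl within a gene. Cck lies between 238 and 356 FPKM and Penk between 11.6 and 20.7 FPKM.

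RefSeq promoter sequences (GRCr8, 250 bases before to 50 after the gene's start, read 5′ to 3′ on the gene's strand) were matched by symbol for 6 of the 9 genes: Vgf, Npy, Sst, Scg2, Scg3 and Chgb. Vgf and Sst are shown because their transcripts were both higher in Model than in Ctrl, and Scg2 because it holds the same motif and did not pass the test. Capitals mark TGACGTCA, the cAMP response element bound by CREB, a palindrome that reads the same on either strand.
Vgf (chr12:25276971-25277270, - strand): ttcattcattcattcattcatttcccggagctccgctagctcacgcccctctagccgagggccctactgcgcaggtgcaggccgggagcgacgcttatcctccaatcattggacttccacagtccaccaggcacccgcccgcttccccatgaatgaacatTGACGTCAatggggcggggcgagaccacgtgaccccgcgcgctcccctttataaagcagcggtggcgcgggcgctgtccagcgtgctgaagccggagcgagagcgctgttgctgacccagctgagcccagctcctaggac
Sst (chr11:90461296-90461595, + strand): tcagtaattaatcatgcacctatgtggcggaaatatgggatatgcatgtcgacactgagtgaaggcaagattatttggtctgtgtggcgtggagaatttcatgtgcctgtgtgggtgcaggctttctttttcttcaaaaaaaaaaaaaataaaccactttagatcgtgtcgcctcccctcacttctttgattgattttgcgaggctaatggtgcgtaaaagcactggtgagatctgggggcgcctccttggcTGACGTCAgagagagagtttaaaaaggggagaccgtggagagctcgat
Scg2 (chr9:88256817-88257116, - strand): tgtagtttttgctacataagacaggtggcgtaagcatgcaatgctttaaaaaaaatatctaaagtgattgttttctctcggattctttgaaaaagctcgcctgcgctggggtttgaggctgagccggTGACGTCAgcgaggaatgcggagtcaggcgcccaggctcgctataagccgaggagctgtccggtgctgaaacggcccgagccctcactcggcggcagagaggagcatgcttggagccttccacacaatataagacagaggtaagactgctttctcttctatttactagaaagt

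The motif was present in 3 of the 6 promoters, and in 1.83% of 33469 promoters of the same length. Its nearest base lay 83 bases before the annotated start in Vgf, 116 bases before it in Scg2 and 2 bases after it in Sst. These distances rest on RefSeq's starts, and where transcription begins was not measured, so the motif in Sst need not lie within the transcript. The shorter core TGACG, which every full element contains, was found on either strand in 4 of the 6, Scg3 being the further one, and in 21.2% of all promoters. The letters TATAAA of the TATA box, also sought on both strands, were found in Vgf alone of the 6 and in 14.2% of all promoters. These matches describe letters, and binding was not measured.

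Model was first set against Ctrl, for differences that accompany the diet, streptozotocin and stress. Cck, Vgf, Sst and Chga rose in Model, by 1.49-fold, 1.37-fold, 1.38-fold and 1.20-fold. Chgb, Scg2 and Scg3, the other granin genes, did not pass the test, and neither did Npy or Penk. Over all 7073 genes 12.4% were called. The 4 higher calls among 9 genes, with no lower call, stand beside 7.04% of all 7073 tested genes called higher and 5.39% called lower, and beside 15.2% higher and 7.36% lower of the 2923 tested genes with a mean of at least 30 counts, the range in which 7 of the 9 lie. Those shares depend on the processing. All genes split into 498 higher and 381 lower calls, and into 502 and 360 with DESeq2's size factors in edgeR. DESeq2 itself, with an adjusted p for 1529 genes, gave 359 and 81. Library totals, which shift the all-gene median by -0.11 on the log2 scale, gave 290 and 641. In the same 4 genes the groups did not overlap, against 26.1% of all genes without overlap, 13.4% higher and 12.7% lower. The median log2 fold change was 0.36 over the 9 genes and -0.02 over all genes tested. Beside these higher calls, 3 of the 4 dentate granule markers tested were called lower in Model (Sema5a, C1ql2 and Dock10), as were 2 of 8 pyramidal markers (Wfs1 and Camk2a), and their part in the calls was not tested.

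Cck encodes cholecystokinin, a peptide of gut and brain that modulates inhibition in the hippocampus. It had 286, 291 and 309 CPM in Model 1 to 3, scaled by the trimmed mean of M-values, against 204, 189 and 201 CPM in Ctrl 1 to 3. Every Model library lay above every Ctrl library by a wide gap. The means were 295 ± 12.4 CPM in Model and 198 ± 7.89 CPM in Ctrl (SD, n = 3 each), a log2 fold change of 0.58 ± 0.10 (SE; edgeR quasi-likelihood test, Benjamini-Hochberg adjusted p = 2.20e-06). The call held in all 16 alternatives, at 0.47 to 0.60.

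Sst encodes somatostatin, an inhibitory peptide of dendrite-targeting interneurons. Its levels were 104, 91.0 and 82.7 CPM in Model and 77.8, 57.2 and 65.7 CPM in Ctrl. The groups were apart, with a gap between the lowest Model and the highest Ctrl library that was small beside the spread within each group. The log2 fold change was 0.46 ± 0.16 (edgeR adjusted p = 0.0440). This call was lost when Model 1, Model 2, Ctrl 2 or Ctrl 3 was left out (adjusted p = 0.0861 to 0.253), and with library totals, no count filter or only the 2 groups in the fit (0.0527 to 0.164).

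Npy and Penk were the members with the fewest counts, so that single libraries weigh heavily. Npy, the gene of neuropeptide Y, had 33.1, 13.2 and 32.0 CPM in Model and 13.0, 16.4 and 20.5 CPM in Ctrl. Model 2 lay within the Ctrl range, on 8 counts, while the other 2 Model libraries lay above it. Over all libraries the log2 fold change was 0.69 ± 0.31 (edgeR adjusted p = 0.137), and without Model 2 it was 0.98 (adjusted p = 0.0323). Penk, the precursor of the enkephalins, had 25.3, 19.9 and 19.999 CPM in Model and 16.5, 14.0 and 20.5 CPM in Ctrl. The groups overlapped, and the log2 fold change of 0.36 ± 0.32 (adjusted p = 0.549) had a 95% interval of -0.26 to 0.98.

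Vgf, a precursor of several secreted peptides, had 189, 222 and 199.99 CPM in Model and 146, 158 and 139.6 CPM in Ctrl. All 3 Model libraries were higher. Its means were 204 ± 16.4 CPM in Model and 148 ± 9.12 CPM in Ctrl, and it rose by 0.46 ± 0.11 on the log2 scale (edgeR adjusted p = 0.00212). No alternative ended the call, and the fold ran from 0.34 to 0.51.

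Chga, which encodes chromogranin A, had 417, 357 and 361 CPM in Model and 294, 333 and 319 CPM in Ctrl. The groups were apart, Model 1 being the farthest from Ctrl. It rose by 0.26 ± 0.09 on the log2 scale (edgeR adjusted p = 0.0401). Leaving out Ctrl 1, Model 1 or Model 3 ended the call (adjusted p = 0.0540 to 0.311), as did library totals, no count filter or only the 2 groups in the fit (0.0502 to 0.279). With library totals, no count filter, only the 2 groups or without Model 1, Cck and Vgf were the 2 genes still called.

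Chgb, which encodes chromogranin B and had the most counts of the 9, stood at 1244, 1149.7 and 1069 CPM in Model and 1204, 1215 and 1166 CPM in Ctrl. Libraries of both groups were interleaved. Its log2 fold change was -0.05 ± 0.07 (edgeR adjusted p = 0.738), with a 95% interval of -0.19 to 0.09. Scg2, the precursor of secretoneurin, had 271.5, 289.5 and 225 CPM in Model and 243, 252 and 256 CPM in Ctrl. Model spanned the whole Ctrl range, and the log2 fold change of 0.06 ± 0.10 (adjusted p = 0.801) had an interval of -0.14 to 0.25. Scg3, a granin that binds chromogranin A to the vesicle membrane, had 200.5, 199 and 192 CPM in Model and 213, 208 and 172 CPM in Ctrl. These overlapped too, at -0.02 ± 0.11 (adjusted p = 0.955; interval -0.23 to 0.20). The intervals of Chgb, Scg2 and Scg3 lie below the log2 fold change of Vgf, whose own difference from them was not tested.

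**Figure D2:**
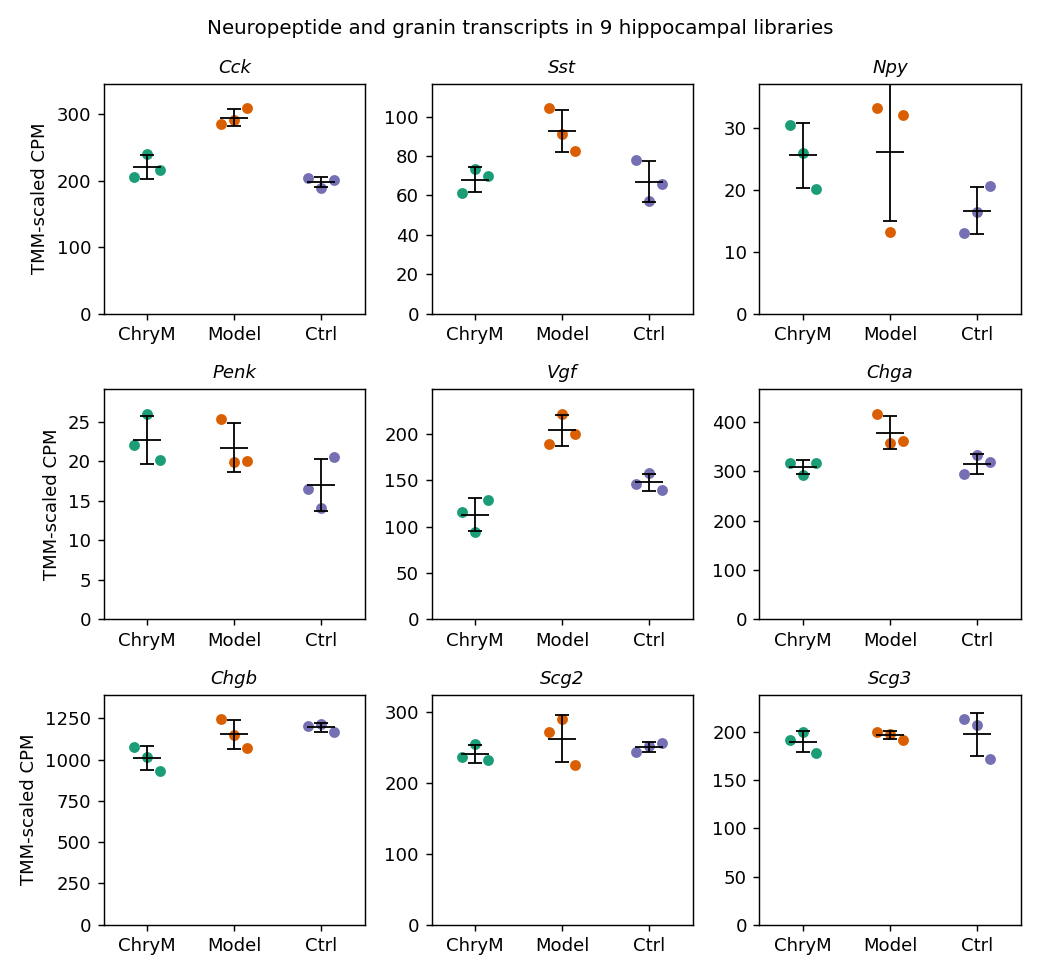
Scaled CPM of the 9 genes in ChryM, Model and Ctrl; points are single libraries, bars the mean ± SD of 3, and each axis starts at 0. Model libraries of Cck (286 to 309 CPM) and Vgf (189 to 222 CPM) lie above those of both other groups, while Scg2 and Scg3 overlap throughout.

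Summed over the 4 peptide precursors Cck, Sst, Npy and Penk, Model libraries had 415 to 448 CPM and Ctrl libraries 277 to 311 CPM, and Cck made up most of both. The 5 granin genes together, Vgf included, had 2048 to 2322 CPM in Model and 2053 to 2165 CPM in Ctrl, which overlapped. Chgb took 43.8 ± 1.00% of the counts of the 9 genes in Model and 49.7 ± 0.272% in Ctrl (SD, n = 3 each).

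ChryM was set against Model for differences that accompany chrysophanol, and this comparison shares its Model libraries with the one above. Vgf, Cck and Chga fell in ChryM, to 0.551-fold, 0.748-fold and 0.816-fold of Model, and no member rose. Over all genes 8.27% were called, and the 3 lower calls stand beside 4.41% of all tested genes called lower and 3.86% called higher, and 8.55% lower and 7.22% higher of those with a mean of at least 30 counts. The groups did not overlap in 4 genes, all lower in ChryM, against 23.6% of all genes, 11.8% higher and 11.7% lower, and the fourth was Sst. The split of calls over all genes was 273 higher and 312 lower, 106 and 156 with DESeq2, and 369 and 254 with library totals. The median log2 fold change was -0.19 over the 9 genes and 0.00 over all genes. Beside these lower calls, the dentate granule markers Sema5a, C1ql2 and Dock10, 3 of 4 tested, and the pyramidal marker Wfs1, 1 of 8, were called higher in ChryM, and their part in the calls was not tested. Wfs1 had 70.8 to 95.2 CPM in ChryM, 21.5 to 29.3 CPM in Model and 54.9 to 87.3 CPM in Ctrl.

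Vgf had 116, 93.7 and 129 CPM in ChryM, against the 189 to 222 CPM of Model. The difference was the largest in size of the 27 log2 fold changes of the 9 genes, with every ChryM library well under every Model library. ChryM averaged 113 ± 17.7 CPM and Model 204 ± 16.4 CPM (SD, n = 3 each), a log2 fold change of -0.86 ± 0.12 (edgeR adjusted p = 3.50e-09). It stayed called in all 16 alternatives, at -0.96 to -0.73.

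Cck had 206, 241 and 216 CPM in ChryM and 286 to 309 CPM in Model. The ChryM libraries all lay below Model. Cck fell by 0.42 ± 0.10 on the log2 scale (edgeR adjusted p = 0.00144), and all 16 alternatives kept the call, with folds of -0.49 to -0.36. Chga had 316, 293 and 318 CPM in ChryM and 357 to 417 CPM in Model. Its groups were apart, and it fell by 0.29 ± 0.09 (adjusted p = 0.0252). The Chga call was lost without Model 1 or ChryM 2 (adjusted p = 0.240 and 0.160) and with DESeq2, library totals or no count filter (0.0651 to 0.0967).

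Sst had 61.0, 73.4 and 69.7 CPM in ChryM and 82.7 to 104 CPM in Model. The groups were apart, yet the log2 fold change of -0.43 ± 0.16 missed the threshold (edgeR adjusted p = 0.0801), and it was 0.0694 to 0.329 over the alternatives. The summed level of 13 interneuron markers was 192 to 220 CPM in ChryM, 255 to 305 CPM in Model and 236 to 256 CPM in Ctrl, and Gad1, the gene of a GABA-making enzyme, had 72.0 to 75.7 CPM in ChryM, 82.7 to 94.3 CPM in Model and 80.6 to 89.0 CPM in Ctrl. The part of these in the Sst values was not tested.

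Npy had 30.5, 26.0 and 20.1 CPM in ChryM, within the 13.2 to 33.1 CPM of Model, at -0.05 ± 0.28 (edgeR adjusted p = 0.953). Penk had 22.0, 26.0 and 20.1 CPM in ChryM and 19.9 to 25.3 CPM in Model, at 0.08 ± 0.29 (adjusted p = 0.931). At these counts the 95% intervals reach from -0.60 to 0.49 for Npy and from -0.50 to 0.65 for Penk. Chgb had 1078, 1018 and 930.1 CPM in ChryM and 1069 to 1244 CPM in Model. The lowest Model library lay just under the highest ChryM library, and the log2 fold change was -0.19 ± 0.07 (adjusted p = 0.0942). It passed with only these 2 groups in the fit (adjusted p = 0.0282) and without Ctrl 3 (0.0274). Scg2 had 236, 255 and 232 CPM in ChryM, and Scg3 had 192, 199.9 and 178 CPM. Both overlapped Model, at -0.11 ± 0.10 and -0.05 ± 0.11 (adjusted p = 0.621 and 0.874).

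**Figure D3:**
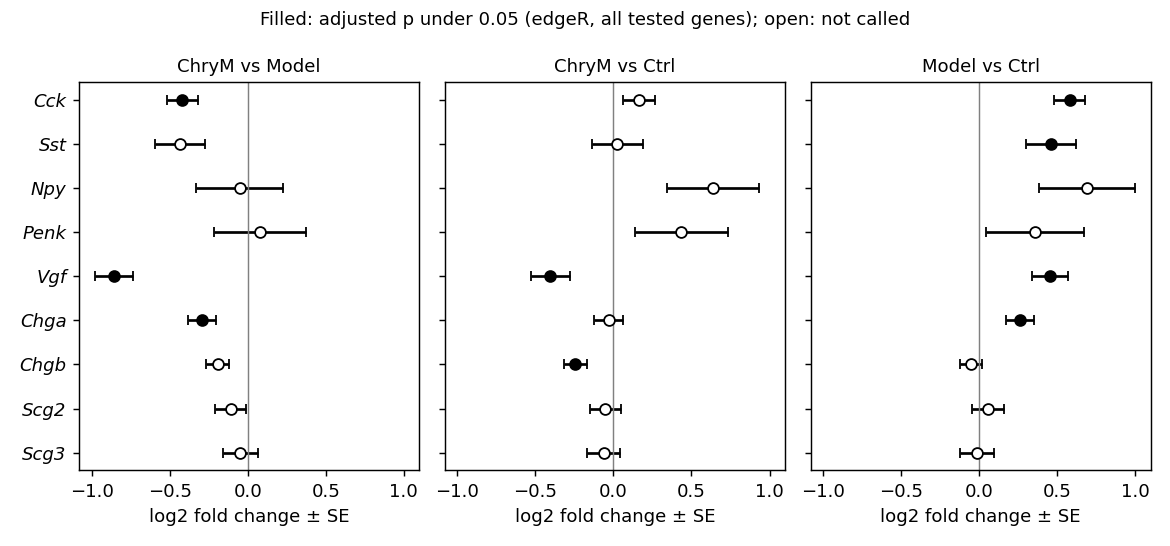
Log2 fold change ± SE of the 9 genes in each comparison; filled points have an adjusted p under 0.05 over all 7073 genes. Vgf is at -0.86 in ChryM vs Model and 0.46 in Model vs Ctrl, and Scg3 is close to 0 in all 3 comparisons.

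ChryM was also set against Ctrl, using libraries that the other comparisons share. Vgf and Chgb fell in ChryM relative to Ctrl, to 0.756-fold and 0.844-fold, and no member rose. Over all genes 18.8% were called, and these 2 lower calls stand beside 8.96% of all genes called lower and 9.83% called higher, and 12.8% lower and 19.8% higher of genes with a mean of at least 30 counts. Over all genes 695 were called higher and 634 lower, with DESeq2 385 and 206, and with library totals 533 and 799. The median log2 fold change was -0.03 over the 9 genes and -0.01 over all genes.

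Vgf, at 93.7 to 129 CPM in ChryM and 139.6 to 158 CPM in Ctrl, had a log2 fold change of -0.40 ± 0.12 (edgeR adjusted p = 0.0113). Its 3 groups were thus all apart, in the order Model, Ctrl, ChryM from high to low. Without ChryM 2 or Ctrl 2 this call was lost (adjusted p = 0.191 and 0.0740), as with DESeq2 or no count filter (0.131 and 0.0540). Chgb, at 930.1 to 1078 CPM in ChryM and 1166 to 1215 CPM in Ctrl, was at -0.24 ± 0.07 (adjusted p = 0.00824), and lost its call without ChryM 3 (0.0689) or with no count filter (0.0657). Without the count filter none of the 9 genes was called, while 3 of 9 had an unadjusted p under 0.05 in the edgeR test as reported, against 29.6% of all genes.

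Cck averaged 221 ± 17.7 CPM in ChryM and 198 ± 7.89 CPM in Ctrl (SD, n = 3 each). The libraries did not overlap, with ChryM higher, but the log2 fold change of 0.16 ± 0.10 did not pass (edgeR adjusted p = 0.299). Of the 9 genes 3 did not overlap here, 1 higher and 2 lower in ChryM, against 31.7% of all genes, 15.8% in each direction. Sst and Chga were at 0.03 ± 0.17 and -0.03 ± 0.09 (adjusted p = 0.946 and 0.855), with 95% intervals of -0.30 to 0.35 and -0.21 to 0.15. Npy averaged 25.5 ± 5.22 CPM in ChryM and 16.6 ± 3.79 CPM in Ctrl, at 0.64 ± 0.30 (adjusted p = 0.123). Penk, Scg2 and Scg3 were at 0.44 ± 0.30, -0.05 ± 0.10 and -0.06 ± 0.11 (adjusted p = 0.335, 0.767 and 0.736).

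The proteins that process and carry these peptides were read from lists of other genes. In this and the following lists, a gene is counted once for each comparison in which it was called, and the comparisons share libraries. Of all tested genes 12.4% were called in Model vs Ctrl, 8.27% in ChryM vs Model and 18.8% in ChryM vs Ctrl. Of 16 genes for prohormone processing and granin-like proteins, 9 were tested, with 5 calls over the 3 comparisons. Pcsk1n, which encodes proSAAS, a granin-like inhibitor of prohormone convertase, had 640, 587 and 642 CPM in ChryM, 527, 576 and 599 CPM in Model and 407, 465 and 457 CPM in Ctrl. ChryM and Model both lay above Ctrl. It rose by 0.36 ± 0.08 in Model vs Ctrl (edgeR adjusted p = 0.000703) and by 0.49 ± 0.08 in ChryM vs Ctrl (3.25e-07), and was at 0.13 ± 0.08 in ChryM vs Model (0.380). Cpe, the carboxypeptidase that trims peptide ends in the vesicle, had 811, 821 and 831 CPM in ChryM, 1088, 1069 and 945 CPM in Model and 1079, 1060.4 and 1140.2 CPM in Ctrl. ChryM was lower than both other groups, at -0.33 ± 0.07 against Model (adjusted p = 0.000728) and -0.41 ± 0.07 against Ctrl (2.26e-06), and Model vs Ctrl was at -0.08 ± 0.07 (0.552). Ctsl, a cysteine protease gene, was the other call, at -0.60 ± 0.21 in Model vs Ctrl (adjusted p = 0.0473), and its groups overlapped. The Ctsl call was lost without ChryM 2, Ctrl 1, Ctrl 2, Model 1 or Model 3 (adjusted p = 0.0526 to 0.303), with DESeq2 size factors or no count filter (0.0510 and 0.119), and with the replicate number as a block (0.0586). Scg5, which encodes the chaperone of a prohormone convertase, and Pcsk2, that convertase, were not called in any comparison.

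Medians of this list, taken first for Model vs Ctrl, then for ChryM vs Model and last for ChryM vs Ctrl, were -0.05, 0.03 and -0.11 on the log2 scale, near the -0.02, 0.00 and -0.01 of all genes. Of 16 genes of the dense-core vesicle membrane and its release, 10 were tested, with 8 calls over the 3 comparisons and medians of -0.06, -0.12 and -0.08. Ptprn, a vesicle membrane gene of the receptor-type phosphatase family, had 275, 273 and 263 CPM in ChryM, 275, 301 and 285 CPM in Model and 209, 204 and 233 CPM in Ctrl. It rose in Model and ChryM relative to Ctrl, by 0.42 ± 0.10 and 0.33 ± 0.10 (edgeR adjusted p = 0.00111 and 0.00752), the second call being lost without Ctrl 2 (0.0515). Bex1, a small brain-expressed gene, rose by 0.35 ± 0.09 in Model vs Ctrl (adjusted p = 0.00296). Syt11, a vesicle synaptotagmin gene, had 105, 107 and 105 CPM in ChryM, 153, 154 and 131 CPM in Model and 242, 225 and 239.5 CPM in Ctrl. It was lowest in ChryM and highest in Ctrl without overlap, at -0.70 ± 0.11 in Model vs Ctrl, -0.46 ± 0.13 in ChryM vs Model and -1.15 ± 0.11 in ChryM vs Ctrl (adjusted p = 2.16e-07, 0.0112 and 3.83e-17). The Syt11 call in ChryM vs Model was lost without Model 1 or Model 2 and with DESeq2 (adjusted p = 0.0572 to 0.0658). Ptprn2, a relative of Ptprn, and Dnajc5, a vesicle chaperone gene, were lower in ChryM than in Ctrl, at -1.02 ± 0.25 and -0.76 ± 0.22 (adjusted p = 0.000817 and 0.00605). Those calls were lost without Ctrl 2 (0.0979) and without ChryM 2 (0.0717), and both with DESeq2 (0.0592 and 0.114). Cpe, Ptprn, Ptprn2, Bex1 and Dnajc5 overlap other, mostly uncharacterised loci in RefSeq, so their counts may include reads of those. Slc18a2, the vesicular monoamine transporter gene, had 277 to 286 CPM in ChryM, 284 to 323 CPM in Model and 232 to 282 CPM in Ctrl, although the catecholamine enzyme genes Th and Dbh had no count, and it was not called.

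**Figure D4:**
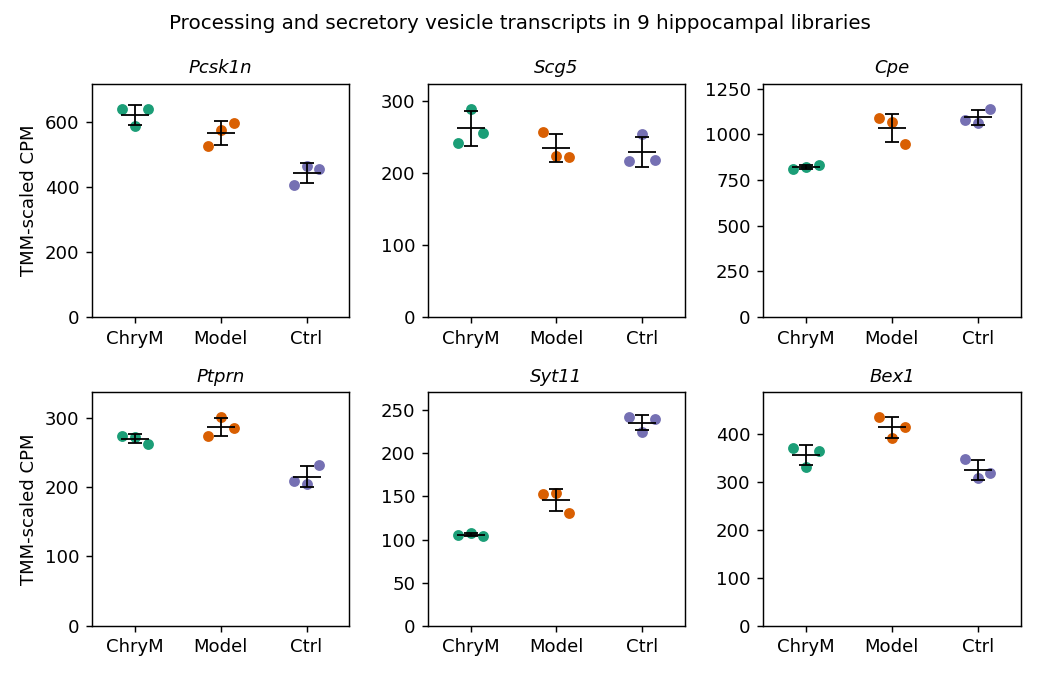
Scaled CPM of 6 genes of peptide processing and secretory vesicles in ChryM, Model and Ctrl; points are libraries, bars the mean ± SD of 3, axes start at 0. Cpe is lowest in ChryM at 811 to 831 CPM, and Syt11 is at 105 to 107 CPM in ChryM, 131 to 154 CPM in Model and 225 to 242 CPM in Ctrl.

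Other neuropeptide genes were mostly too low to test. Of 55 listed precursors besides the 9 genes, 52 carried their name in the table, 4 had enough counts, and 18 had no count in any library. Nucb2, the precursor of nesfatin, was the only call over the 3 comparisons, at 13.2 ± 4.82 CPM in Model and 28.9 ± 5.04 CPM in Ctrl (SD, n = 3 each; log2 fold change -1.09 ± 0.33, edgeR adjusted p = 0.00893). It was lost without Ctrl 1 or Model 1 (adjusted p = 0.0617 and 0.0727). Pdyn, the prodynorphin gene, Npb, the neuropeptide B gene, which overlaps Anapc11, and Apln, the apelin gene, were tested and not called. Over these 4 genes the medians, in the same order of comparisons, were -0.24, -0.01 and -0.26. Vip, Tac3, Pnoc and Grp, further interneuron or hippocampal peptides, had 43 to 45 counts over all 9 libraries.

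Receptors were sparser still. Of 37 listed receptor genes 4 were tested, and 1 call was made over the 3 comparisons, Ntsr2, a neurotensin receptor gene, at 99.5 ± 6.90 CPM in ChryM and 75.0 ± 7.71 CPM in Ctrl (log2 fold change 0.41 ± 0.15, edgeR adjusted p = 0.0376). It was lost without any of ChryM 1, ChryM 2, ChryM 3, Ctrl 1 or Ctrl 2 (adjusted p = 0.0517 to 0.199) and with DESeq2, library totals or no count filter (0.0569 to 0.163). The receptor medians were 0.30, -0.13 and 0.03 in the same order of comparisons. For the peptides described here, Sstr3 was the only receptor tested, and it was not called. Npy1r had 10 counts in ChryM, 7 in Model and 11 in Ctrl, Sstr2 had 15, 10 and 19, and Cckbr 2, 3 and 4, which is too few for a comparison.

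Of 17 genes for peptidases that can cut neuropeptides or related peptides, and for relatives of such peptidases, 9 were tested. They had 4 calls over the 3 comparisons, all lower, 2 in Model vs Ctrl and 2 in ChryM vs Ctrl. Of all tested genes 5.39% were called lower in Model vs Ctrl and 8.96% in ChryM vs Ctrl. The list medians were -0.30, 0.06 and -0.35 in the same order of comparisons. Ace, the angiotensin-converting enzyme gene, was at -2.22 ± 0.55 in Model vs Ctrl and -2.34 ± 0.52 in ChryM vs Ctrl (edgeR adjusted p = 0.000524 and 6.32e-05). Its levels were 3.80 ± 2.51 CPM in ChryM, 4.12 ± 1.27 CPM in Model and 19.4 ± 1.02 CPM in Ctrl. This gene, which overlaps an uncharacterised locus, was lower than Ctrl in both other groups, as was the sum of choroid plexus markers given above. That sum was higher in ChryM than in Model, mostly through 1 gene, the only call there among the 3 plexus markers tested. In that comparison Ace was at -0.13 ± 0.73 (edgeR adjusted p = 0.957) on 9 and 8 counts. A link between Ace and these markers was not tested. Npepps, an aminopeptidase gene, was at -0.72 ± 0.23 in Model vs Ctrl (adjusted p = 0.0233), and Dpp6, a dipeptidyl peptidase-like gene without enzyme activity, at -0.96 ± 0.28 in ChryM vs Ctrl (0.00730). Npepps lost its call without Ctrl 1, Ctrl 2, Ctrl 3 or Model 2 (adjusted p = 0.0523 to 0.198) and with no count filter (0.0679), and Dpp6 without ChryM 1 (0.100). Both overlap other loci in RefSeq, pseudogenes among those within Dpp6.

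The genes most like each called member were sought among 2922 other tested genes with a mean of at least 30 counts, by Pearson's r of log2 CPM over the 9 libraries, which share the group differences. For Vgf these were ENSRNOG00000069610, without a gene name, and Tcta (r = 0.97 and 0.95). For Cck they were LOC102546590 and the splicing factor gene Srsf10 (0.98 and 0.97), and for Sst the protocadherin gene Pcdhga1 and the thioesterase gene Acot7 (0.95 and 0.93). Chga was closest to the imprinted gene Peg3 and the dynamin gene Dnm1 (0.94 each), and Chgb to the prion protein gene Prnp and the chaperone gene Dnaja1 (0.99 and 0.96).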

How the data were processed

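Poly(A) RNA of 9 libraries went into dUTP strand-marked sequencing, per the labels' protocols. The authors deposited whole-number read counts per gene and, in a second table, FPKM beside each gene's length, per the file headers. FPKM equalled count over length and library total in 100% of values (relative tolerance 1e-09). HISAT2 and DESeq2 are named per the submitters' processing notes; for the counting tool, strand setting, build and annotation the sources used here give nothing. Of the IDs, 4367 had no gene name.

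The fit used edgeR 4.0.16 in R 4.3.3: filterByExpr, TMM factors, 1 coefficient per group on all 9 libraries, robust glmQLFit (6 residual degrees of freedom) and two-sided glmQLFTest, called at an adjusted p under 0.05 over 7073 genes. The SE is the larger of test and counting error, and 95% intervals rest on it. Alternatives were DESeq2 1.42.0, its size factors in edgeR, library totals, other count filters, only the groups compared, a replicate block and leaving out each library. Lists were described by calls and medians, without a set test. Named genes are the 9 members, up to 4 called genes per list and comparison, and the 2 most similar genes of each called member. Members and lists were chosen with earlier results of these data known. Raw reads were not analysed here, and results for some marker genes are not reported here.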

Additional observations from a re-analysis of the deposited data

How the results depend on the processing

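Vgf and Cck kept their calls and directions in Model vs Ctrl and ChryM vs Model in all 16 alternatives, while the calls of Sst and Chga rested on single libraries and on the scaling. The 4 members called in Model vs Ctrl became 2 with library totals, with no count filter and with only the 2 groups fitted, and 2 to 4 when each library was left out. In ChryM vs Model the 3 calls became 2 to 4. In ChryM vs Ctrl the 2 calls became 1 with DESeq2, 0 with no count filter and 1 to 2 when a library was left out. DESeq2 called 440, 262 and 591 genes in the 3 comparisons in place of 879, 585 and 1329. It was run on the whole table of 30562 genes, without the filter that left 7073. An adjusted p was given to 1529, 2832 and 4461 genes. Its calls split into 359 higher and 81 lower in Model vs Ctrl, 106 and 156 in ChryM vs Model, and 385 and 206 in ChryM vs Ctrl. It gave no adjusted p for Sst, Npy and Penk in Model vs Ctrl. Of the list calls it made 5 in place of 8 for the vesicle list, and 0 for the peptidase, receptor and precursor lists in place of 4, 1 and 1, genes without an adjusted p being counted as not called. The receptor list had 0 calls also under library totals and without a count filter, and 0 to 1 when a library was left out, while the precursor list had 2 calls with at least 10 counts in every library of a group and 0 to 2 when a library was left out.

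Signs turned only in comparisons where the member was not called. With library totals, which lower the Model vs Ctrl median of all genes by 0.11, Scg2 in Model vs Ctrl was -0.056, and Npy and Scg3 in ChryM vs Model were 0.0030 and 0.0073, and Sst in ChryM vs Ctrl -0.033. Scg3 in Model vs Ctrl was 0.013 with DESeq2 and 0.0054 with no count filter. When each library was left out in turn, Model vs Ctrl ran from -0.017 to 0.17 for Scg2, -0.097 to 0.042 for Scg3 and -0.12 to 0.0051 for Chgb, ChryM vs Model from -0.35 to 0.14 for Npy and -0.035 to 0.19 for Penk, and ChryM vs Ctrl from -0.081 to 0.16 for Sst and -0.080 to 0.014 for Chga. The causes were not tested.

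The shared replicate numbers gave no sign of pairing: deviations of same-numbered libraries correlated at -0.04 to 0.11, and those of other pairs at -0.10 to 0.10. A weak pairing is not excluded, since counting error at this depth could hide it. With the replicate block the members called stayed 4, 3 and 2, and all genes called were 855, 586 and 1319. Depth limits Npy and Penk most, at 8 to 25 and 12 to 23 counts per library.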
